A study of Mus musculus with 5 samples.

Results

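The genes Mcm2, Mcm3, Mcm4, Mcm5, Mcm6 and Mcm7 code for the subunits of the replicative DNA helicase, and 60 guide RNAs of a CRISPR dropout screen were directed at them in embryonic stem (ES) cells of the mouse, 10 per gene. They were chosen by name, as the rows listed under MCM2, MCM3, MCM4, MCM5, MCM6 and MCM7, out of 17820 guides, which comprise guides to 1682 genes and 1000 non-targeting controls. The name pattern also takes in 20 guides to the relatives Mcm8 and Mcm9, which are not subunits of that helicase and are described apart. The library is one of mouse transcription factor and chromatin genes, and each cell receives a lentiviral guide that directs Cas9 to cut its target, and a guide's share of the reads follows the share of cells that carry the guide, whether or not the site was cut in them. Libraries were made from 2 Maxiprep samples of the guide library, called plasmid libraries here, and from transduced cells taken at day 5, day 8 and day 12, with 1 sample each. The labels give the genotype Ainv15(iNgn2 Tubb3::GFP) and no treatment for all samples, the Maxiprep ones included, and the protocol describes Zeocin selection of the transduced cells throughout. Days run from transduction in the titles, but the protocol dates the earliest sample from the start of selection, so days are read as labels here, and as numbers in the trend test alone.

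The MCM helicase is a ring of 6 related ATPases. It is loaded onto replication origins as an inactive double ring before S phase, and is switched on by joining Cdc45 and the GINS complex, after which it travels with the fork and unwinds the DNA. Mcm4, Mcm6 and Mcm7 form a subcomplex that can unwind DNA by itself in vitro, while Mcm2, Mcm3 and Mcm5 complete the ring; Mcm2 also binds histones through its N-terminal tail, and the Mcm2-Mcm5 interface is the gate through which DNA enters, as worked out in yeast and fly. ES cells divide quickly, with short gap phases, and license many origins. Mcm2 to Mcm7 are regarded as required in every dividing cell.

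The guides that mark the ends of the range are shown here because the spread inside each gene is as much a part of the data as the gene medians. For each gene these are the guides with the lowest and with the highest change at day 12 among those with enough plasmid reads. The sequences are those of the deposited tables, 5′ to 3′, and the 10 bases next to the PAM, where Cas9 tolerates mismatches least, are in capitals.
Mcm2 TFMouse_06997 (lowest): cgtggctgccAACCACAAAG
Mcm2 TFMouse_06993 (highest): catgcccaacACATATGGCG
Mcm3 TFMouse_07009 (lowest): tctgcttcacTGAAGTCGTA
Mcm3 TFMouse_07002 (highest): gaaacgtaagAAGGCAAGTG
Mcm4 TFMouse_07020 (lowest): caaagttgaaGCAATTGATG
Mcm4 TFMouse_07014 (highest): ctaccaaagtGAGGAGCAAG
Mcm5 TFMouse_07025 (lowest): cctcgatccaGTATTCACCC
Mcm5 TFMouse_07028 (highest): gaaggtgaagCCCGTGCGAT
Mcm6 TFMouse_07033 (lowest): gcttgtcaacTGGTACCTGA
Mcm6 TFMouse_07032 (highest): tgaaggaagcGAGAGCTATG
Mcm7 TFMouse_07048 (lowest): acttcggatgGTAGACATTG
Mcm7 TFMouse_07050 (highest): ctcataagttTCATGTCCAA

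Of the 60 guides, 4 had no reads in any library, and these are 2 pairs of exact reverse complements. They are shown because every such pair in the library was without reads.
Mcm2 TFMouse_06994: tgcggatcatGGACTCGATG
Mcm2 TFMouse_06998: catcgagtccATGATCCGCA
Mcm7 TFMouse_07041: tccgtgaattGGTGTCACGG
Mcm7 TFMouse_07049: ccgtgacaccAATTCACGGA
The same held across the library: 220 guides have their exact reverse complement among the other guides, and all 220 had 0 reads in the 2 plasmid and 3 cell libraries, against 3 of the 17600 guides without such a partner, of which 2 share a single sequence. How reads that match such a pair were assigned is not given in the sources used here. TFMouse_07044 of Mcm7 overlaps that gene's silent pair by 17 bases and was read 150 and 70 times in the plasmid libraries, so the place was still covered by a guide. A further 8 guides had fewer than 30 reads in a plasmid library and were left out, which kept 48 guides: 7 for Mcm2, 9 for Mcm6 and 8 for each of the others. The filter used plasmid reads alone. No genome was used here, so where in the genes the guides cut was not analysed; 0 of the 60 guides matched the RefSeq promoter sequence (GRCm38.p6) of its gene.

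Library totals ran from 1008492 reads at day 12 to 3541896 reads in plasmid library 1. The median helicase guide was read 182.5 times in plasmid library 1 and 75 times in plasmid library 2. It was read 24.5 times at day 5, 12 times at day 8 and 9.5 times at day 12. Changes are given as the log2 of a guide's scaled reads (CPM, reads at a common library size, plus 1) over the mean of the plasmid libraries plus 1, and a gene's value is the median over its guides, with the SD over guides. Plasmid library 2 against plasmid library 1, both from the library preparation, gave the 48 guides a median of 0.02 and an SD of 0.25, with a range from -0.53 to 0.60. There is 1 library per day and so no replicate culture, and gene values are descriptions of these libraries with no test. The zero of the scale is the typical guide of the library; non-targeting guides lay above it, with medians of 0.41, 0.54 and 0.58 at days 5, 8 and 12.

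Guides to all 6 helicase genes were rarer in the cells than in the plasmid libraries. At day 12 the 6 gene medians lay between -3.89 and -1.93, and each was below -1, a loss of more than 2-fold; of the 1682 genes of the library, 15.8% had a median at or below -1. At day 8 it was 5 of 6, with 12.1% of all genes, and at day 5 it was 4 of 6, with 6.3% of all genes. The median of the 6 genes was -1.37, -2.30 and -2.28 at days 5, 8 and 12, where the median of all genes was 0.01 on each day. Counted by guide, 30, 38 and 39 of 48 were at or below -1 at days 5, 8 and 12. Of all guides to genes 12.9%, 17.9% and 21.5% were, and of non-targeting guides 3.36%, 2.69% and 3.36%. All 48 lay below the median non-targeting guide (0.58) at day 12, but so did the median of all guides to genes (-0.07). The lowest of 893 non-targeting guides stood at -2.67, and 16 of the 48 lay below it. The 5th percentile of all guides to genes was -2.80, so at least 5% of them were below -2.67 as well. None of the 48 differed by as much as 2-fold downward between the plasmid libraries, as 19 of the 14443 kept guides to genes did. This count follows in part from the filter, since the minimum of 30 reads in each plasmid library removes guides low in either. TFMouse_07010 of Mcm3, with 120 and 19 plasmid reads, was left out in this way.

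A trend over days, with the plasmid libraries at 0, was tested for each guide with edgeR's quasi-likelihood test on all 5 libraries and adjusted over all 15336 kept guides. Of the 48 helicase guides 42 fell, 0 rose and 6 did not pass. Of all kept guides 22.9% fell and 17.8% rose. Of the 893 non-targeting guides 43 (4.82%) fell and 406 rose, with a median slope of 0.06 per day. The zero of the trend thus lies below the typical control guide. The slope had a median of -0.22 log2 units per day over the 48 guides. All guides to Mcm6 (9 of 9) and Mcm7 (8 of 8) fell, as did 7 of 8 to Mcm4, 7 of 8 to Mcm5, 6 of 7 to Mcm2 and 5 of 8 to Mcm3. With 3 residual degrees of freedom the test measures only the spread between the plasmid libraries and the departure from a straight course in these 3 cell samples, and guides to 1 gene are not replicates of a culture.

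Mcm2, the subunit at the gate that also carries histones, had the deepest loss of the 6 at each day, except that after a correction for GC content Mcm6 (-2.01) stood below it (-1.76) at day 5. The gene lies on chromosome 6 (88883474 to 88898780, GRCm38, the mm10 build). Its 7 guides summed to 448 and 409 CPM in the plasmid libraries and to 109, 58.2 and 43.6 CPM at days 5, 8 and 12. At day 12 this left 10.2% of the plasmid abundance (95% exact Poisson interval of the reads, 7.27% to 13.9%, for counting error only). The median stood at -2.22 (SD 0.94) at day 5, -3.29 (SD 1.77) at day 8 and -3.89 (SD 2.26) at day 12, the 9th, 6th and 6th lowest of 1682 genes. The SD widened as the guides parted. TFMouse_06997 had 505 and 176 plasmid reads, 30 and 8 reads at days 5 and 8, and 0 at day 12. Since 0 of 1008492 reads allows up to 3, it was at least 42.4-fold lower at day 12 than in the plasmid libraries, and its slope was -0.53 per day (SE 0.04; edgeR quasi-likelihood adjusted p = 5.67e-07). TFMouse_06995 was also at 0 reads, at days 8 and 12, at least 12.8-fold lower at day 12. TFMouse_06993, by contrast, had 101 and 34 plasmid reads and then 12, 14 and 14 at days 5, 8 and 12: after a first drop it held level, and its trend did not pass (edgeR quasi-likelihood adjusted p = 0.0628). At day 12 just 2 of the 7 guides held 87.5% of the remaining reads of Mcm2, and had made up 22.8% of its plasmid abundance. The other 5 had at most 2 reads each.

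Mcm4, on chromosome 16 (15623897 to 15637400), codes for a subunit of the Mcm4-Mcm6-Mcm7 subcomplex. Its 8 guides summed to 524 and 515 CPM in the plasmid libraries and to 226, 131 and 97.0 CPM at days 5, 8 and 12, which left 18.7% at day 12 (interval 15.0% to 23.0%). The median was -1.17 (SD 0.36) at day 5, -2.39 (SD 1.11) at day 8 and -2.82 (SD 1.35) at day 12. It was lower at each day, with the smallest step last, and the guides lay close together at first and apart later. TFMouse_07020 had 204 and 86 plasmid reads, 29 at day 5, 3 at day 8 and 1 at day 12 (slope -0.40 per day, SE 0.05; edgeR quasi-likelihood adjusted p = 2.79e-05). TFMouse_07014 had 136 and 63 plasmid reads and 30, 38 and 21 at days 5, 8 and 12, with a change of -0.89 at day 12 and a trend that did not pass (edgeR quasi-likelihood adjusted p = 0.104). TFMouse_07014 shares 11 bases with TFMouse_07015, which stood at -3.76 with 1 read at day 12. These guides to overlapping sites thus ended 2.87 log2 units apart, the widest gap of 6 such pairs of kept guides. At 1 read, counting error is large.

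Mcm6, on chromosome 1 (128331575 to 128359705), another subunit of that subcomplex, had lost most of its abundance by the first time point. So had Mcm2, with 25.4% left at day 5, and Mcm4, with 43.6% left. Its 9 guides summed to 551 and 642 CPM in the plasmid libraries and to 170, 148 and 133 CPM at days 5, 8 and 12. The abundance left was 28.4% at day 5 (interval 24.4% to 33.0%), 24.8% at day 8 and 22.3% at day 12 (interval 18.5% to 26.6%), so the intervals of days 5 and 12 overlap. Medians were -1.74 (SD 1.19), -1.89 (SD 0.71) and -2.42 (SD 1.29). The day 5 median amounted to 71.8% of the day 12 median, against 57.1% for Mcm2, 41.5% for Mcm4 and 32.8% for Mcm5. TFMouse_07033 had 330 and 121 plasmid reads and 3, 9 and 1 reads at days 5, 8 and 12, the lowest of the 48 guides at day 5 with a change of -4.59. Others fell early and stayed level: TFMouse_07032 had 223 and 103 plasmid reads and 43, 35 and 34 reads at days 5, 8 and 12.

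Mcm7, on chromosome 5 (138164583 to 138172111), the third subunit of the subcomplex, had also lost most of its abundance by day 5, and stood lower again at day 8. Its 8 guides summed to 479 and 481 CPM in the plasmid libraries and to 164, 98.3 and 121 CPM at days 5, 8 and 12. The abundance left was 34.1% at day 5 (interval 29.2% to 39.7%), 20.5% at day 8 (16.7% to 24.8%) and 25.2% at day 12 (20.7% to 30.3%). The intervals of days 5 and 8 do not overlap, and those of days 8 and 12 do. Medians were -1.57 (SD 0.52), -2.40 (SD 0.60) and -2.05 (SD 1.42), and the day 5 median amounted to 76.8% of the day 12 median. All 8 guides were at or below -1 at day 5, the only one of the 6 genes where this was so. TFMouse_07050, with 349 and 117 plasmid reads and 43, 36 and 50 at days 5, 8 and 12, held 45.05% of the gene's reads at day 12 (exact binomial interval 35.6% to 54.8%) and 19.6% of its plasmid abundance. TFMouse_07048 went the other way, with 233 and 90 plasmid reads and 27, 12 and 1 (slope -0.35 per day, SE 0.04; edgeR quasi-likelihood adjusted p = 1.07e-05).

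Mcm5, on chromosome 8 (75109468 to 75128439), pairs with Mcm2 at the gate. It had lost less by day 5 than Mcm2, Mcm4, Mcm6 and Mcm7, a difference that was not tested. Its 8 guides summed to 454 and 504 CPM in the plasmid libraries and to 308, 188 and 160 CPM at days 5, 8 and 12, leaving 64.4% (interval 57.5% to 71.9%), 39.3% and 33.5% (28.3% to 39.3%). Medians were -0.70 (SD 0.81), -2.20 (SD 1.37) and -2.14 (SD 0.99). With a minimum of 100 plasmid reads, which left TFMouse_07023 and TFMouse_07028 alone, they were -0.71, -1.06 and -1.29. A single guide weighs heavily in the summed reads: TFMouse_07028 held 49.7% of the gene's day 12 reads (exact binomial interval 41.3% to 58.0%) and 28.1% of its plasmid abundance. That guide had 412 and 201 plasmid reads and 144, 97 and 73 at days 5, 8 and 12, and fell by 0.06 per day (SE 0.02; edgeR quasi-likelihood adjusted p = 0.0335). TFMouse_07025 had 127 and 43 plasmid reads and 26, 7 and 2 reads, and fell by 0.26 per day (SE 0.05; edgeR quasi-likelihood adjusted p = 0.000677).

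Mcm3, on chromosome 1 (20802966 to 20820312), Mcm5's neighbour in the ring, had the mildest median loss of the 6 at each day in the settings used here, though at day 12 it stood closer to Mcm7 (-2.05) than the SD over guides. That place depends on the processing: Mcm5 was milder at day 5 with no read minimum (-0.38, and -0.45 for Mcm3) and without plasmid replicate 2 (-0.66, and -0.67 for Mcm3). With a minimum of 100 plasmid reads, Mcm5 (-1.29), Mcm7 (-1.52) and Mcm6 (-1.75) were all milder than Mcm3 (-1.97) at day 12. That minimum left 13 helicase guides in all, and for Mcm3 TFMouse_07007 alone (199 and 104 plasmid reads), so this order rests on few guides. Its 8 guides summed to 375 and 385 CPM in the plasmid libraries and to 276, 170 and 154 CPM at days 5, 8 and 12, leaving 72.6% (interval 64.4% to 81.5%), 44.8% and 40.5% (34.1% to 47.7%). Medians were -0.57 (SD 0.56), -0.997 (SD 0.57) and -1.93 (SD 1.06), and the day 5 median amounted to 29.4% of the day 12 median. Of its 8 guides 3 did not pass the trend test. TFMouse_07002 was the single helicase guide above 0 at day 12, at 0.13, with 131 and 45 plasmid reads and 24, 19 and 36 at days 5, 8 and 12 (slope -0.02 per day, SE 0.03; edgeR quasi-likelihood adjusted p = 0.687). TFMouse_07008 stood at -0.32 with 40 reads at day 12 (edgeR quasi-likelihood adjusted p = 0.289). TFMouse_07001 stood above 0 at day 5 (0.69) and at -1.96 at day 12, a course that is not straight (edgeR quasi-likelihood adjusted p = 0.0936). TFMouse_07009 was the lowest, with 156 and 80 plasmid reads and 43, 27 and 7 (edgeR quasi-likelihood adjusted p = 0.00211).

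The comparisons between days set the cell libraries against each other without the plasmid libraries. For day 8 against day 5 the gene medians were -0.91 for Mcm5, -0.86 for Mcm3, -0.86 for Mcm4, -0.85 for Mcm7, -0.66 for Mcm2 and -0.16 for Mcm6, and 0 of 6 reached -1, as 2.62% of all genes did. For day 12 against day 8 they were -0.60 for Mcm2, -0.55 for Mcm4, -0.47 for Mcm3, -0.20 for Mcm5, 0.02 for Mcm6 and 0.32 for Mcm7, again with 0 of 6 at -1 and 0.654% of all genes. Over the whole span of day 12 against day 5, Mcm2 (-2.09, SD 1.82), Mcm4 (-1.48, SD 1.25) and Mcm3 (-1.43, SD 1.33) were at or below -1, against 7.02% of all genes. Mcm5 (-0.81), Mcm7 (-0.60) and Mcm6 (-0.16) were not. The order of the genes by loss after day 5 therefore differed from their order at day 5, when Mcm6 and Mcm7 came next after Mcm2 (after the GC correction Mcm6 came before Mcm2). With 1 library a day this difference between genes was not tested. The day 5 library also enters both orders, as the sample at day 5 and as the reference after it. The orders are thus not independent. For Mcm6 and Mcm7 the sign of the last interval depends on the summary: the means over guides were -0.59 and -0.088. Mcm6 also turned to -0.064 when scaled on total reads and to -0.031 when centred on the non-targeting guides.

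What the 48 guides share beyond their target was examined in their sequences. Guides at or below -1 at day 12 (39 guides) and those above it (9 guides) both had a median GC content of 50%, with ranges of 35% to 70% and 35% to 60%. Over the 893 non-targeting guides the change at day 12 was higher by 0.12 log2 units for each added G or C. Helicase guides with at most 45% GC had a median of -2.33 (17 guides), those with 50% to 55% had -2.34 (19 guides) and those with 60% or more had -1.94 (12 guides). Non-targeting guides in the same classes had medians of 0.15, 0.58 and 0.71, so helicase guides lay below them in each class. By the base next to the PAM, the 10 helicase guides ending in A had a median of -2.85, and the 30 ending in G had -2.07; over all guides to genes, those ending in A had -0.35 and those ending in G 0.04. Median reads in plasmid library 1 were 177 for the guides at or below -1 and 188 for those above it. Among 6 pairs of kept guides that share 10 or more bases of target, the change at day 12 differed by a median of 1.20 log2 units, with a range of 0.73 to 2.87, against 1.33 over the 163 other pairs within a gene. All of these are descriptions of guides that share genes and libraries.

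The 8 guides left out for low plasmid reads had a median change of -2.23 at day 12, and 7 of them lay below -1. Those 7 had 0 to 6 reads each at day 12, where counting error and the pseudocount weigh heavily. The share below -1 was not taken over all guides under the read minimum. The exception was TFMouse_07010 of Mcm3, with 120 and 19 plasmid reads and 26, 29 and 41 at days 5, 8 and 12. It shares 14 bases of target with TFMouse_07006, which was kept and stood at -2.33.

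Mcm8 and Mcm9 form a complex of their own, known for its part in homologous recombination and in the germ line, and are not part of the ring. Their guides were depleted as well, with day 5 medians close to those of Mcm3 and Mcm5. Mcm8 (chromosome 2, 132816137 to 132844197) had 10 kept guides with medians of -0.69 (SD 0.86), -1.18 (SD 0.80) and -1.71 (SD 1.29) at days 5, 8 and 12, and 7 of 10 fell in the trend test. Mcm9 (chromosome 10, 53536315 to 53630006) had 8 kept guides with medians of -0.58 (SD 0.70), -1.48 (SD 0.99) and -1.74 (SD 1.26), and 6 of 8 fell, where 22.9% of all kept guides did. Their day 12 medians lay just above that of Mcm3 (-1.93, SD 1.06), the mildest of the helicase genes, by less than the SD over guides. Summed reads left 50.0% of the plasmid abundance of Mcm8 (interval 43.3% to 57.4%) and 41.0% of that of Mcm9 (34.7% to 48.0%) at day 12, and 40.5% of that of Mcm3 (34.1% to 47.7%), so that the Mcm9 and Mcm3 intervals nearly coincide.

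Of 65 symbols of other DNA replication genes, older names included, 10 were in the library, Mcm8 and Mcm9 among them. Their day 12 medians had a median of -1.61, and 7 of 10 were at or below -1, against 15.8% of all genes. Without Mcm8 and Mcm9 the median was -1.45, and 5 of 8 were at or below -1. The lowest was Ssrp1, a subunit of the histone chaperone FACT, at -2.50 (SD 1.65, 10 guides), followed by Rfc1, the large subunit of the clamp loader, at -1.89 (SD 0.70, 9 guides) and Mcm9. The highest were Top2b, a type II topoisomerase, at 0.21 (SD 0.53, 7 guides) and Chaf1a, a subunit of chromatin assembly factor 1, at -0.20 (SD 1.36, 8 guides). Of the 85 kept guides to all 10 genes 50 fell in the trend test, against 22.9% of all kept guides. Without Mcm8 and Mcm9 it was 37 of 67. Set beside genes for RNA polymerase II subunits, which every cell also needs, the 6 helicase genes had a median of -2.28 at day 12 and ran from -3.89 to -1.93, and the 11 Polr2 genes had a median of -2.47 and ran from -4.33 to -0.80. The 14 genes with Gtf2 names had a median of -1.96 and ran from -3.72 to 0.48. The lists differ in size and the differences between them were not tested.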

How the data were processed

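Each deposited file holds the read counts of 1 library by guide, not normalized, per the file headers. The submitters' processing notes list cutadapt, Bowtie, featureCounts and mm10, with no versions; how guide reads were matched is not given in the sources used here. A guide was kept if each plasmid library read it at least 30 times. Counts were scaled to CPM with TMM factors (edgeR 4.0.16, R 4.3.3), and log2 ratios used a pseudocount of 1. The trend test was edgeR's quasi-likelihood test on counts with Benjamini-Hochberg adjustment over 15336 guides and a threshold of 0.05; the SE is the slope over the root of its F statistic. It was tested on simulated counts. Symbols and coordinates are RefSeq's (GRCm38.p6), where all 8 MCM genes matched. Intervals and floors cover counting error only, since reads are not separate cells. The text names all 6 helicase genes, the lowest and highest kept guide of each at day 12, and the 3 lowest and 2 highest other replication genes; Mcm8 and the further guides were named after their values were seen. Alternatives covered the pseudocount, read minimum, scaling, GC content, gene summary, DESeq2 1.42.0, the form of the trend and each library left out. The members and lists were chosen with earlier results of these data known.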

Additional observations from a re-analysis of the deposited data

How the results depend on the processing

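The 18 helicase gene medians against the plasmid libraries kept their sign under all 11 alternatives. Of 360 gene values over the alternatives, without the values between cell days that no plasmid library enters when one is left out, 355 kept their sign; 4 of the 5 exceptions are the values for Mcm6 and Mcm7 at day 12 against day 8, -0.064 (total reads), -0.031 (non-targeting centre) and -0.59 (mean) for Mcm6 and -0.088 (mean) for Mcm7. The fifth was Mcm7 at day 12 against day 5, 0.094 with a minimum of 100 plasmid reads, where 13 helicase guides were left in place of 48. That minimum gave a median of the 6 genes of -1.99 at day 8 and -1.86 at day 12 against the plasmid libraries, -0.49 for day 8 against day 5 and -0.87 for day 12 against day 5. It left 9, 12 and 10 guides at or below -1 at days 5, 8 and 12, and in the trend test 13 of 13 helicase guides and 1139 of 4452 guides falling, with 982 rising. A pseudocount of 5 gave -1.24, -1.86 and -1.81 against the plasmid libraries at days 5, 8 and 12, -0.64 for day 8 against day 5 and -0.86 for day 12 against day 5. Centring on non-targeting guides gave -1.78, -2.83, -2.86, -0.97 and -1.29 for the same 5 comparisons, and 221, 364 and 450 of all genes at or below -1 at days 5, 8 and 12. With non-targeting scaling 47 of 48 helicase guides fell in the trend test, with 7192 of all guides falling and 438 rising. With no read minimum the day 8 value was -2.17, and with means over guides -2.13 at day 8 and -2.54 at day 12. After the GC correction it was -2.14 at day 12. Leaving out a plasmid library gave -2.30 and -2.11 at day 12. Leaving out each library in turn gave 38 to 44 helicase guides falling, 2210 to 3929 of all guides falling and 1393 to 3162 rising. The fewest of all guides fell without plasmid replicate 1 (2210) and rose without it (1393), or without replicate 2 (1557). DESeq2 called 40 of 48 helicase guides falling, and of 15336 guides 2886 falling and 2163 rising. Mcm2 at day 12 ranged from -6.92 (minimum of 100 plasmid reads) to -2.84 (pseudocount of 5). The value of -6.92 rests on TFMouse_06997 and TFMouse_06999 alone, with 0 and 1 reads at day 12, where the pseudocount weighs heavily. Of the 7 kept Mcm2 guides 5 had at most 2 reads on that day. Of the other genes against the plasmid libraries, Mcm5 moved by over 1.5 times with the minimum of 100 (-1.06 at day 8 and -1.29 at day 12). It also did with no minimum (-0.38 at day 5) and with non-targeting centring (-1.11 at day 5). Mcm3 did with that centring (-0.98 at day 5 and -1.53 at day 8). Some values between days moved as far, such as Mcm7 at day 8 against day 5, from -0.85 to -0.25 with the minimum of 100. The GC correction put Mcm6 (-2.01) below Mcm2 (-1.76) at day 5. The higher minimum also left fewer guides. The cause of these shifts was not tested. No paired analysis was possible because the plasmid group alone has replicate numbers.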
